A study of Mus musculus with 10 samples.

Results

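The chemokine system of the mouse osteocyte preparation was described here across 10 RNA-seq libraries. Its members were chosen by name, as the protein-coding genes called Ccl, Cxcl, Ccr or Cxcr with a number and at most 1 letter, together with Cx3cl1 and Cx3cr1. This gave 47 genes of the 22548 in the table, with 30 ligands (19 CC, 10 CXC and 1 CX3C) and 17 receptors (10 CC, 6 CXC and 1 CX3C). Of these, 42 passed the filter on low counts among 16186 genes tested, with 26 ligands and 16 receptors. The members below the filter were Ccl17, with 2 to 27 counts per library, Cxcl1 (2 to 18), Ccr8 (1 to 17), Cxcl3 (0 to 13) and Ccl1 (0 to 10), and no fold change is given for them.

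Chemokines are secreted proteins that guide moving cells along a gradient, and they are named for the spacing of cysteines near their amino end. They bind receptors on leukocytes that couple to inhibitory G proteins, and the bound receptor is then switched off by receptor kinases and arrestins. In bone marrow, Cxcl12 from stromal and bone-lining cells holds hematopoietic stem cells, B-lineage cells and plasma cells in place through Cxcr4. Myeloma cells use the same receptor to lodge in marrow, and the chemokines Ccl3 and Ccl4 are known in this disease for acting on osteoclasts and osteoblasts.

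All mice were C57BL/6, labelled male and 8 weeks old, and each gave 1 library of bone cells. The 5 MM mice carried Vk12598 cells, a murine Vk*MYC myeloma line that had been placed in the femur. The 5 No MM mice received no myeloma cells and, per the study's methods, PBS in equal volume. Marrow was removed, and the bone pieces went through repeated collagenase and EDTA digestion, so the osteocyte fraction was defined by digestion and not by sorting. The libraries are named by group and mouse number, No MM 1 to No MM 5 and MM 6 to MM 10. The sample labels pair no control with a myeloma-bearing mouse.

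The libraries held 31099174 to 39466332 counted reads, so that 3 counts, taken as the floor, were worth 0.0709 to 0.114 CPM, the counts scaled to a common library size. Immunoglobulin genes took 26.6% of the counts of No MM 3 and 29% of No MM 4, against 0.637% to 3.86% in the other 8 libraries. Plasma cell markers summed to 9265 and 9283 CPM in these same 2 libraries and to 583 to 1266 CPM elsewhere. All 7 were lower in MM at an unadjusted edgeR p under 0.05, beside 10.3% of all genes. Mzb1 did not peak in these 2 libraries, with 62.9 and 65.5 CPM beside 87.6 in No MM 1 and 70.4 in No MM 2. The label "male" was met in 3 libraries only, No MM 5, MM 9 and MM 10, where Y-linked Ddx3y had 47.4 to 59.4 CPM. In the other 7 libraries Ddx3y was at 0.297 CPM or less, and Xist, the RNA of the inactive X chromosome, had 36.2 to 717.6 CPM. Osteocyte marker genes were present throughout, with a summed level of 323 to 2518 CPM in No MM and 405 to 1782 CPM in MM. The lowest of them, Fgf23, had 0.775 to 5.06 CPM. Markers of other cell types were present beside them. Over the 10 libraries osteoblast markers summed to 1810 to 47416 CPM and mature neutrophil markers to 5287 to 23580 CPM. The ranges were 825 to 13714 CPM for osteoclasts, 1133 to 3427 CPM for monocytes and macrophages, and 785 to 50336 CPM for red cells. These sums depend on the genes listed and are not shares of cells. With several cell types in each preparation, fewer cells of a type and less RNA per cell cannot be told apart.

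**Figure D1:**
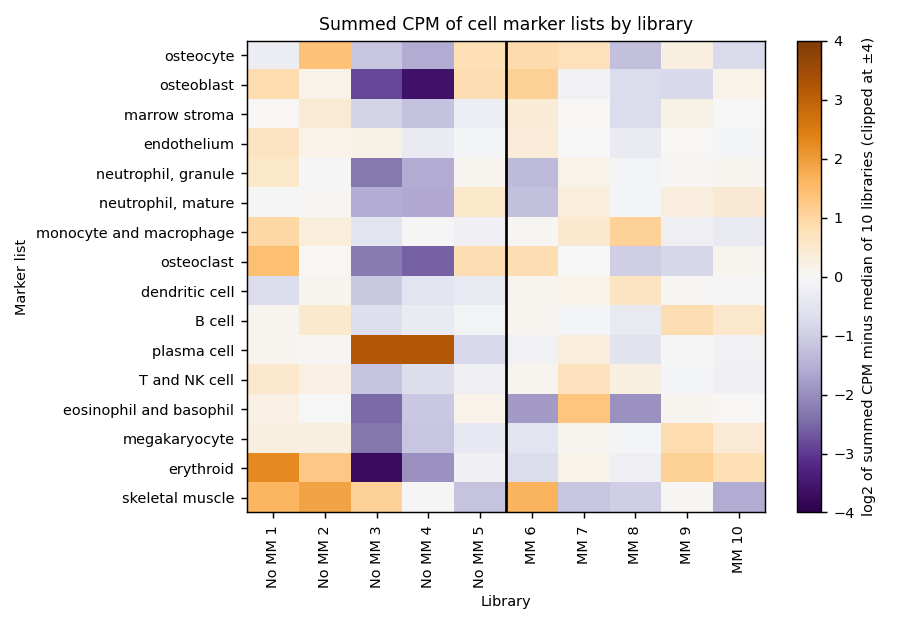
Summed CPM of 16 cell marker lists (rows) in the 10 libraries (columns), as the log2 difference from the list's median over the libraries, with No MM on the left of the line and MM on the right. The plasma cell row is far above its median in No MM 3 and No MM 4, where the osteoblast, osteoclast and erythroid rows are below theirs.

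Proximal promoters are shown for 4 ligands that recur in the results. Cxcl9 and Cxcl10 peaked in the same libraries and lie close together on chromosome 5. Cxcl12 had the highest level of the members, and Cxcl2 is a neutrophil chemokine. The sequences are the 250 bases before the annotated start in RefSeq (GRCm38.p6), given 5′ to 3′ on the gene's strand, and 35 of the 47 members had an entry. Capitals mark matches on either strand to an interferon response element core (ISRE, GAAANNGAA), a kappaB-type site (GGANNTTCC), a GAS element bound by STAT factors (TTCNNNGAA) or a TATA box (TATAAA).
Cxcl9, chr5:92328080-92328329, minus strand: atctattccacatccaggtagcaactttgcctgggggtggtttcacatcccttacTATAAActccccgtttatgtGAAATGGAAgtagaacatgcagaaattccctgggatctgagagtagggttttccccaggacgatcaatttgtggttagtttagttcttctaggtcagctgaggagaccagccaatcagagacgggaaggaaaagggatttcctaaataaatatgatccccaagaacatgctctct
Cxcl10, chr5:92348890-92349139, minus strand: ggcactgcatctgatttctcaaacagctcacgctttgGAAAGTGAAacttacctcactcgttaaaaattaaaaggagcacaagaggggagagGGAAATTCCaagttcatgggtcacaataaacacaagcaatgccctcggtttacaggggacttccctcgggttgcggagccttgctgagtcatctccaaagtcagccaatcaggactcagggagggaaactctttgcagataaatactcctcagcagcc
Cxcl2, chr5:90903649-90903898, plus strand: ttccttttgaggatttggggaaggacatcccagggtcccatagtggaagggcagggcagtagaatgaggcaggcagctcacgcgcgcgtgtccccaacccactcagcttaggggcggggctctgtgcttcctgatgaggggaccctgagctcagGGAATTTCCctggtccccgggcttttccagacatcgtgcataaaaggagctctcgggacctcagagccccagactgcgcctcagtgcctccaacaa
Cxcl12, chr6:117168285-117168534, plus strand: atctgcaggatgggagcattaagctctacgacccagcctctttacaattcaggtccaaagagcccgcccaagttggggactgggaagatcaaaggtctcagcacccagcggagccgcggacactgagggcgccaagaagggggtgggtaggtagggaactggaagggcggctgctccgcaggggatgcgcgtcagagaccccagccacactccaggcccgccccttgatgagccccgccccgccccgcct

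Counted back from the start, Cxcl9 had its ISRE match at -175 to -167 and a TATA box match at -195 to -190. Cxcl10 had an ISRE match at -213 to -205 and a kappaB match at -158 to -150, and Cxcl2 a kappaB match at -96 to -88. The Cxcl12 promoter, 64.4% G and C, held none of the 4 motifs. Over the 35 member promoters, 8 (22.9%) held the ISRE core, 7 (20%) the kappaB motif, 3 (8.57%) GAS and 8 (22.9%) the TATA box. Among all 32851 promoter entries the shares were 7.13%, 3.59%, 7.02% and 12.4%. Each member entered with a single promoter, while the 32851 entries outnumber the 22548 genes counted. The member shares and these shares are therefore not on the same units, and no enrichment is read from them. The ISRE promoters were those of Cxcl14, Ccr2, Cxcl9, Ccl3, Cxcl10, Ccl19, Cxcr1 and Ccl1, and the kappaB promoters those of Ccl12, Cxcl10, Ccr3, Cxcl1, Cxcl2, Cxcl3 and Ccl1. The start used for Ccl1 lay 125878 bases inside the boundaries of the counted gene, and that for Ccr9 88772 bases inside. None of the printed matches overlap. A match describes letters in this window and not a bound site.

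Levels were compared between genes as scaled CPM per kb of gene length, averaged over the 10 libraries. Among the member ligands Cxcl12 had the highest level (222.3 ± 118.6, SD, n = 10). Next came Ccl6, a myeloid CC chemokine (133.7 ± 62.6), and Cxcl14, a CXC chemokine of epithelia and stroma (83.6 ± 32.2). The platelet chemokines Ppbp (390.2) and Pf4 (275.0), outside the naming rule, stood above Cxcl12. Ccl8, a monocyte attractant, had a level of 48.3 ± 34.6, Ccl5, made by T and NK cells, 40.8 ± 22.6, and Ccl9, a Ccr1 ligand of myeloid cells, 31.3 ± 16.8. Among receptors the length-scaled level was highest for Cxcr4 (88.6 ± 30), then Cxcr2, the neutrophil receptor (33.3 ± 16.9), Ccr1 (32.6 ± 13.9) and Ccr2, the receptor of inflammatory monocytes (30.4 ± 21). The last 3 receptors differed by far less than their SD, and so did Ccl5 and Ccl8. The lowest level was that of Ccl1 (0.0306), so that the members spanned over 3 orders of magnitude.

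Among the members Cxcl12 was the top ligand in 7 of 10 libraries. In these it had 19.8% (No MM 4) to 49.5% (MM 9) of the members' summed length-scaled ligand level, and in No MM 3 11.4%. Cxcl14 led in No MM 3, and Ccl6 led in MM 7 and MM 8. Cxcr4 was the top receptor in 9 libraries, with 24.8% to 69.9% of the receptor level, and Ccr2 led in MM 8. All members together took 0.0812% to 0.413% of the counts, least in No MM 3 and No MM 4.

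**Figure D2:**
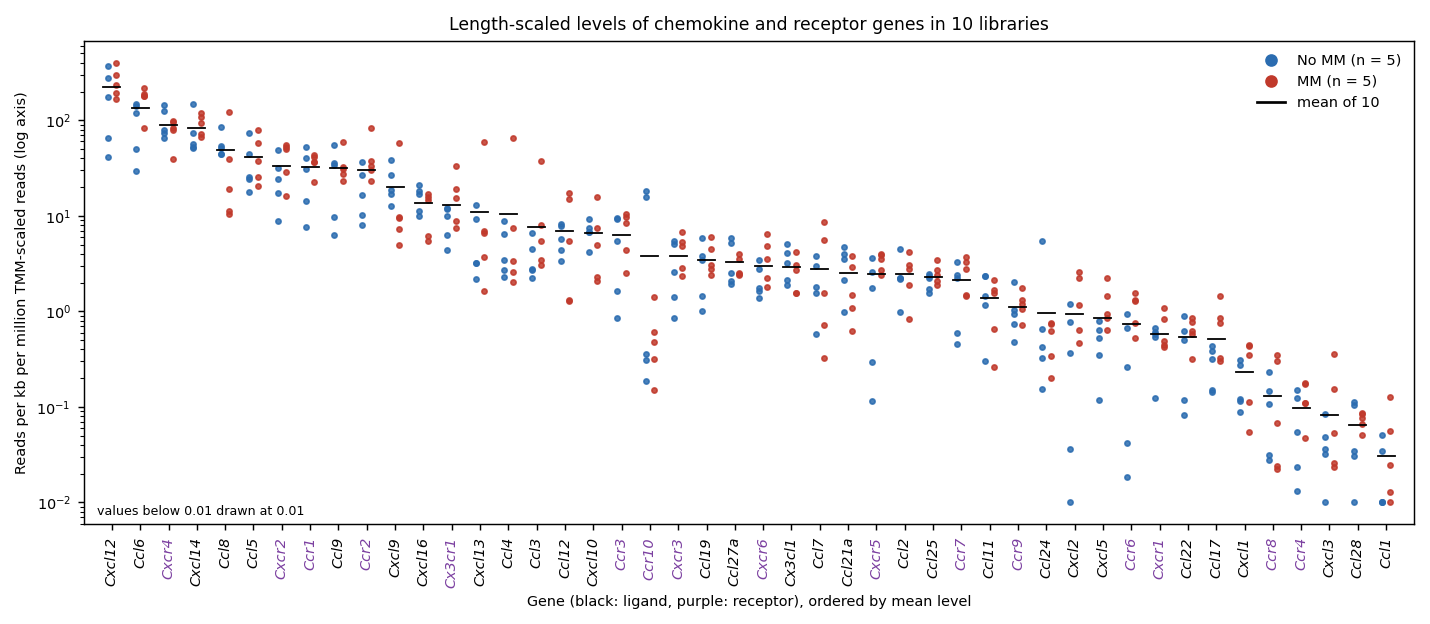
Length-scaled level (TMM-scaled CPM per kb, log axis) of the members, ordered by their mean over 10 libraries (black bar), with 1 point per library in blue (No MM) or red (MM). Cxcl12 (222.3), Ccl6 (133.7), Cxcr4 (88.6) and Cxcl14 (83.6) lead, and the 2 groups overlap for every tested member.

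No member differed between MM and No MM at an adjusted p under 0.05. In edgeR's quasi-likelihood test with Benjamini-Hochberg adjustment the smallest adjusted p was 0.315, both among the members and among all genes, of which 0 (0%) passed. DESeq2 called 0 members after adjustment, beside 31 genes higher and 176 lower of 22438. At an unadjusted p under 0.05 edgeR placed 3 members higher in MM (Ccl3, Cxcl5 and Ccr2; 7.14% of 42) beside 3.81% of all genes, and 1 lower (Ccr10; 2.38%) beside 10.3%. DESeq2 placed 5 members higher and 1 lower at that threshold, beside 4.31% and 9.64% of all genes. All MM libraries lay above all No MM libraries for 0.729% of the genes tested and below them for 0.68%, and for 0 members in either direction.

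Most members had fold changes above 0. It gave a log2 fold change of positive for 31 members and negative for 11 (73.8% positive, beside 47.3% of all genes), with a median of 0.387 beside -0.0272. Receptors were positive for 14 of 16 (median 0.576) and ligands for 17 of 26 (median 0.275). Without No MM 3 and No MM 4, 44 members passed the filter, 26 positive and 18 negative (59.1%, beside 48.4% of all genes). Their median was 0.155, beside -0.017 for all genes. Within groups the members had a median SD of log2 CPM of 0.914, beside 0.493 for all tested genes. The median standard error of the fold change was 0.531 beside 0.308. The members and all genes were not matched for level here, and No MM 3 and No MM 4 were included.

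**Figure D3:**
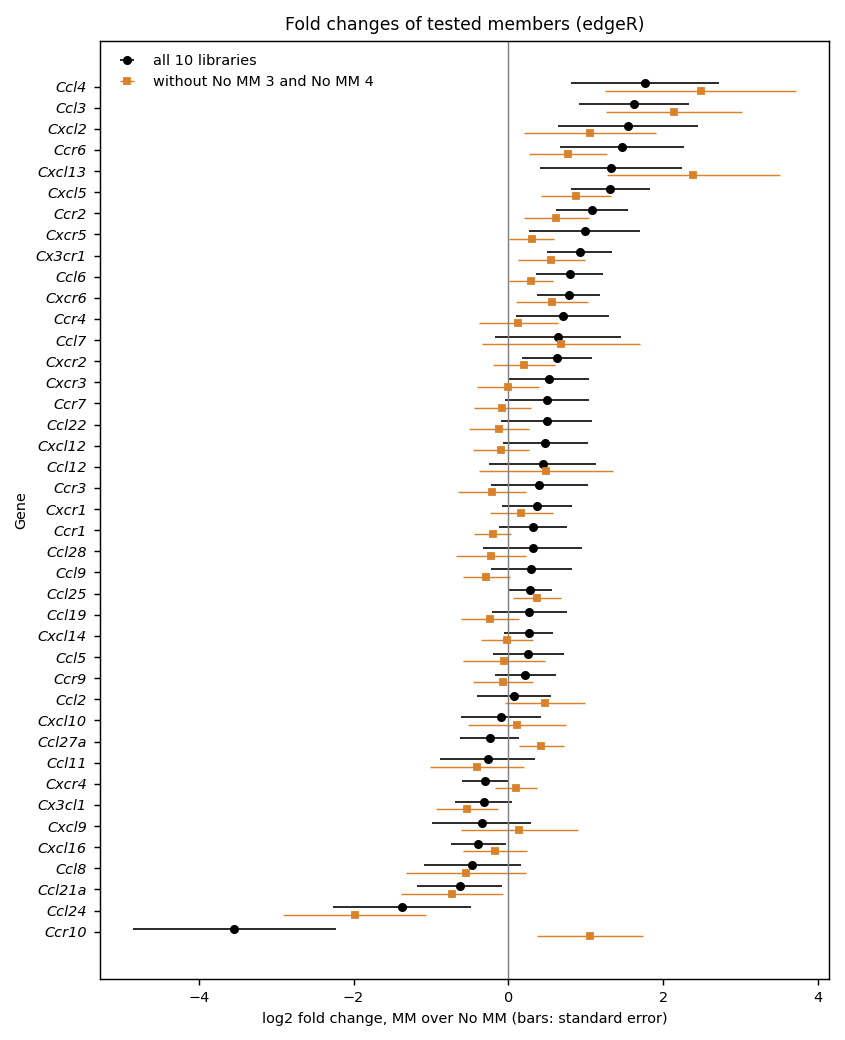
Log2 fold change (MM over No MM, horizontal axis) of tested members with its standard error, from all 10 libraries (black) and without No MM 3 and No MM 4 (orange). Most black points lie above 0, Ccr10 moves from -3.54 to 1.05, and Cxcl12 from 0.48 to -0.10.

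Cxcl12 (chromosome 6, 117168535 to 117181367, plus strand, GRCm38) had 983.5, 2089.3, 233.1, 365.3 and 1556.2 CPM in No MM 1 to 5. In MM 6 to 10 it had 1310.7, 1090.5, 940.7, 2252.9 and 1686.2 CPM. No MM 3 and No MM 4 were the lowest of all 10, and the other 3 controls fell within the MM range. The log2 fold change was 0.48 (SE 0.551, 95% interval -0.73 to 1.69, edgeR adjusted p = 0.704, exact permutation p = 0.254), and it was -0.10 without No MM 3 and No MM 4.

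Cxcr4 (chromosome 1, 128588199 to 128592293, minus strand), the Cxcl12 receptor, ran the other way. It had 117.5, 133.9, 263.3, 224.9 and 144.1 CPM in No MM and 71.1, 150.1, 143.9, 175.4 and 175.2 CPM in MM. No MM 3 and No MM 4 were the highest libraries and MM 6 the lowest, with the other 7 between them. For MM over No MM the log2 fold change was -0.30 (SE 0.297, 95% interval -0.96 to 0.35, edgeR adjusted p = 0.65, exact permutation p = 0.389), and 0.10 without the 2 immunoglobulin-rich controls. The scavenger receptor Ackr3, which also binds Cxcl12 and lies outside the naming rule, had means of 61.6 ± 23.6 CPM in No MM and 45.3 ± 24.2 CPM in MM (SD, n = 5 each, log2 fold change -0.44, edgeR adjusted p = 0.639).

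Ccr2 (chromosome 9, 124101950 to 124113557, plus strand) had 88.6, 141.6, 54, 42.5 and 197.1 CPM in No MM and 125.3, 202.4, 440.3, 176.9 and 162.7 CPM in MM. MM 8 stood above every other library, MM 7 was just above the highest control, and the other 3 MM values lay among the upper controls. The log2 fold change was 1.08 (SE 0.465, 95% interval 0.06 to 2.10, edgeR unadjusted p = 0.0405, adjusted p = 0.34, exact permutation p = 0.0635). It was 0.62 without No MM 3 and No MM 4 (unadjusted p = 0.176), 0.67 without MM 8 (unadjusted p = 0.142) and 0.22 without all 3. It also missed the unadjusted threshold without No MM 1, No MM 3, No MM 4 or MM 7, at values between 0.88 and 1.11, and with 1 surrogate variable (0.75, edgeR unadjusted p of 0.092). The summed monocyte and macrophage markers were also highest in MM 8, at 3427 CPM beside 1133 to 3163 CPM elsewhere. Of these markers C1qa, C1qb, C1qc, F13a1 and Ms4a7 peaked in MM 8. Csf1r and Cd68 peaked in No MM 1, Ly6c2 in No MM 4 and Mrc1 in MM 7. No MM 1 had the sum of 3163 CPM, with Ccr2 at 88.6 CPM. The part of these cells in the Ccr2 result was not tested. The Ccr2 ligands were low, and their fold changes lay within their standard errors of 0, with log2 values of 0.07 ± 0.475 for Ccl2, 0.64 ± 0.812 for Ccl7 and 0.44 ± 0.694 for Ccl12 (SE, edgeR adjusted p = 0.957, 0.732 and 0.791).

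Ccl3 (chromosome 11, 83647844 to 83649355, minus strand), a ligand of Ccr1, had 2.06, 2.14, 5.07, 3.45 and 1.69 CPM in No MM. In MM it had 2.33, 6.19, 29, 4.19 and 2.65 CPM. MM 8 was far above the rest, and 3 of the other MM values fell within the control range. This gave a log2 fold change of 1.62 (SE 0.706, 95% interval 0.07 to 3.18, edgeR unadjusted p = 0.0423, adjusted p = 0.343, exact permutation p = 0.167), and 0.41 without MM 8 (unadjusted p = 0.363). It also missed the unadjusted threshold without No MM 1, No MM 2, No MM 4 or No MM 5, at values between 1.48 and 1.69.

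Its neighbour Ccl4, an attractant of monocytes and T cells, had 1.49 to 5.77 CPM in No MM, and 1.71, 4.86, 42.9, 2.23 and 1.33 CPM in MM 6 to 10. As for Ccl3, the MM 8 value stood alone. The log2 fold change was 1.77 (SE 0.96, edgeR adjusted p = 0.422) and -0.30 without MM 8. The B cell attractant Cxcl13, named after its values were seen, showed the same library at 68.8 CPM, with 1.9 to 8.11 CPM in the other MM libraries and 2.57 to 15.3 CPM in No MM.

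Cxcl5 (chromosome 5, 90759299 to 90761625, plus strand), a Cxcr2 ligand that draws neutrophils, had 0.876, 1.32, 0.194, 0.581 and 1.05 CPM in No MM. In MM it had 1.06, 1.57, 1.39, 3.72 and 2.37 CPM. In 4 of 5 MM libraries it lay above the highest control, and MM 9 and MM 10 were the highest of all. MM over No MM came to a log2 fold change of 1.32 (SE 0.51, 95% interval 0.20 to 2.44, edgeR unadjusted p = 0.0253, adjusted p = 0.315, exact permutation p = 0.0159, where 0.00794 is the smallest that 5 against 5 mice allow). The value was 0.98 without MM 9 (unadjusted p = 0.0816), 1.22 without No MM 4 (0.0538), 0.88 (0.0852) without No MM 3 and No MM 4, and 0.85 (0.203) without the 3 libraries that held Y-linked reads. It was 1.01 (unadjusted p = 0.0592) with 1 surrogate variable and 1.03 (0.057) with a term for Y-linked reads.

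Cxcl2, of the same receptor, had 0 to 1.25 CPM in No MM and 0.486 to 2.73 CPM in MM, again with MM 9 and MM 10 highest (log2 fold change 1.54, SE 0.905, edgeR adjusted p = 0.448, and 2.21 with an unadjusted p of 0.047 without No MM 5). Cxcr2 itself had 26.9 to 147 CPM in No MM and 49 to 167.2 CPM in MM (log2 fold change 0.63, SE 0.447, edgeR adjusted p = 0.525). The sum of mature neutrophil markers was likewise lowest in No MM 4, No MM 3 and MM 6, at 5287 to 6765 CPM beside 15171 to 23580 CPM elsewhere.

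Ccr10 (chromosome 11, 101172997 to 101175443, minus strand), a receptor of antibody-secreting and skin-homing lymphocytes, had 0.533, 0.619, 31.3, 27.1 and 0.319 CPM in No MM. In MM it had 0.543, 1.05, 0.26, 0.827 and 2.45 CPM. No MM 3 and No MM 4 stood alone, and the other 3 controls lay among the MM libraries. The log2 fold change was -3.54 (SE 1.31, 95% interval -6.43 to -0.66, edgeR unadjusted p = 0.0206, adjusted p = 0.315, exact permutation p = 0.373) and 1.05 without these 2 libraries (unadjusted p = 0.16). Without No MM 3 alone it was -2.80 (unadjusted p = 0.0534), and with a term for Y-linked reads -3.64 (0.0947). They were the libraries with the high plasma cell sums, including Irf4 at 1007.2 and 760.5 CPM beside 16.9 to 40.7 CPM elsewhere. Ccr10 overlaps Cntnap1 on the other strand, and whether counting used strand is not given in the sources used here. Its ligands had log2 fold changes of -0.24 ± 0.379 (Ccl27a, which shares near-identical sequence with 3 other genes) and 0.31 ± 0.639 (Ccl28, at most 0.417 CPM), with edgeR adjusted p = 0.791 and 0.844.

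**Figure D4:**
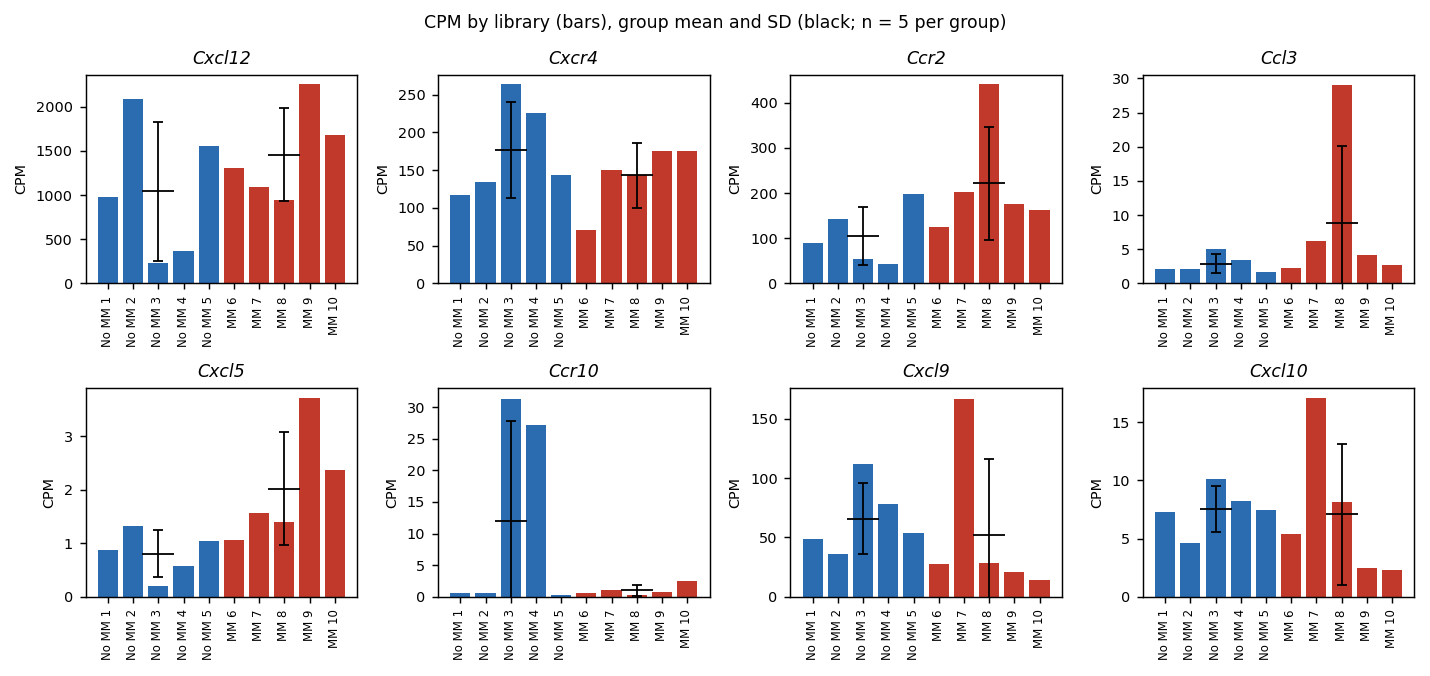
CPM of 8 members in each library (bars, axes from 0), with the group mean and SD (black, n = 5 per group). Ccr10 reaches 31.3 and 27.1 in No MM 3 and No MM 4 only, Ccl3 29 in MM 8, and Cxcl9 and Cxcl10 peak together in MM 7.

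Among the remaining CC ligands the groups overlapped, for Ccl6 and Ccl8 through 1 MM library each. Ccl6 had 173.1, 214, 71.2, 42.5 and 204.4 CPM in No MM and 119.5, 315.6, 269.8, 258 and 256.7 CPM in MM, with 4 MM libraries above the highest control (log2 fold change 0.79, SE 0.435, edgeR adjusted p = 0.426, and 0.29 without No MM 3 and No MM 4). Ccl8 had 22.7 to 43.7 CPM in No MM, but 62.8 in MM 7, 20 in MM 6 and 5.35 to 9.69 CPM in the other 3 MM libraries, so that 4 of 5 MM libraries lay below the lowest control (-0.47, SE 0.624, edgeR adjusted p = 0.75). Without MM 7, its highest library, the value for Ccl8 was -1.49 (edgeR unadjusted p = 0.00509, adjusted p = 0.503). Ccl5 ran from 11.9 to 49.2 CPM in No MM and from 13.8 to 53.4 CPM in MM (0.26, SE 0.458, edgeR adjusted p = 0.819). Ccl9 ran from 19.1 to 165.9 CPM and from 68.7 to 177.7 CPM (0.30, SE 0.523, edgeR adjusted p = 0.815). The eosinophil attractants Ccl11 and Ccl24 were at 2.52 CPM or less, apart from 7.01 CPM of Ccl24 in No MM 1 (-0.27, SE 0.615, and -1.37, SE 0.896, edgeR adjusted p = 0.862 and 0.489). Without No MM 1 the value for Ccl24 was 0.46.

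Cxcl9 and Cxcl10, interferon-induced ligands of Cxcr3 on T and NK cells, shared their order of libraries at both ends, and Cxcl10 was named after its values were seen. Cxcl9 had 48.7, 36.4, 111.7, 78.2 and 53.5 CPM in No MM and 27.3, 167.2, 28.4, 20.9 and 14.4 CPM in MM. Cxcl10 had 7.31, 4.59, 10.1, 8.24 and 7.45 CPM in No MM and 5.41, 17.1, 8.15, 2.51 and 2.26 CPM in MM. Both were highest in MM 7 and, among controls, in No MM 3, and both were lowest in MM 10. Their log2 fold changes were -0.35 (SE 0.64, edgeR adjusted p = 0.825) and -0.09 (SE 0.52, edgeR adjusted p = 0.949). For Cxcl9, 4 of 5 MM libraries lay below the lowest control. Without MM 7, its highest library, the Cxcl9 value was -1.53 (edgeR unadjusted p = 0.00141, adjusted p = 0.503). Cxcr3 had 1.49 to 9.52 CPM in No MM and 4.09 to 11.8 CPM in MM, and MM 7 was again highest (0.53, SE 0.514, edgeR adjusted p = 0.651).

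Cxcl14 had 92.5 to 269 CPM in No MM and 120.3 to 215.1 CPM in MM (log2 fold change 0.26, SE 0.318, edgeR adjusted p = 0.719). Without No MM 2, its highest control, the value was 0.64 (edgeR unadjusted p = 0.0187, adjusted p = 0.219). Cxcl16, a membrane-bound ligand of Cxcr6 on T cells whose exons overlap Zmynd15 on the other strand, had 27.1 to 57.3 CPM in No MM and 14.9 to 45.8 CPM in MM (-0.39, SE 0.355, edgeR adjusted p = 0.627). Cxcr6 had 2.59 to 6.48 CPM and 3.38 to 12.2 CPM, with 3 MM libraries above the highest control (0.78, SE 0.407, edgeR adjusted p = 0.402). It passed edgeR's unadjusted threshold without No MM 2 (0.0397), without MM 10 (0.0358) and, at a value of 1.27, without the 3 libraries with Y-linked reads (0.0187). Cx3cl1, also held at the membrane, had 6.24 to 16.6 CPM in No MM and 5.13 to 13.9 CPM in MM (-0.32, SE 0.365, edgeR adjusted p = 0.699).

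Cx3cr1, a receptor of patrolling monocytes and macrophages, had 37, 43.8, 23.4, 16.4 and 44.7 CPM in No MM and 57.3, 70.6, 123.7, 33.1 and 27.9 CPM in MM. Above every control were 3 MM libraries, while MM 9 and MM 10 lay below 3 of the controls. It gave a log2 fold change of 0.92 (SE 0.42, 95% interval -0.01 to 1.84, edgeR unadjusted p = 0.0512, adjusted p = 0.357). The value was 0.51 without MM 8 (unadjusted p = 0.19), 0.56 without No MM 3 and No MM 4 (0.236) and 1.48 without the 3 libraries with Y-linked reads (0.0064). It passed the unadjusted threshold in 9 of 21 alternatives, DESeq2 (0.0379) among them. Ccr1 (0.31, SE 0.439, edgeR adjusted p = 0.765) and the eosinophil receptor Ccr3 (0.40, SE 0.628, adjusted p = 0.791) did not pass either. The lymphocyte receptors Cxcr5, Ccr6 and Ccr7, named after their values were seen, had log2 fold changes of 0.98, 1.47 and 0.50 with SE of 0.713, 0.797 and 0.545. Ccr6 was at 2.09 without No MM 2 (edgeR unadjusted p = 0.0319). In all 3 the values of No MM 3 and No MM 4 were the lowest of the 10 libraries. Other tested members, Ccl19, Ccl21a, Ccl22, Ccl25, Ccr4, Ccr9 and Cxcr1, had log2 fold changes from -0.63 (Ccl21a) to 0.70 (Ccr4), with edgeR adjusted p from 0.604 to 0.82. Ccl19 and Ccl21a each share near-identical sequence with 4 other genes, so their counts are uncertain.

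Several libraries stood apart for many members at a time. No MM 3 and No MM 4 were both below the other 8 libraries for 15 of 42 members (35.7%, beside 20.7% of all genes), among them Cxcl12, Ccl6, Ccr1, Ccr2 and Cx3cr1. They were both above them for 3 members (7.14%, beside 24%), Cxcr4, Ccr10 and Ccl27a. MM 7 was the highest of all libraries for 11 members (beside 3.27% of all genes) and MM 8 for 7 (beside 8.93%). Within MM, the 2 libraries with Y-linked reads lay below the other 3 for 17 members (40.5%, beside 13.3% of all genes), among them Ccl2, Ccl5, Ccl8, Cxcl9 and Cxcl10. They lay above them for 5 (11.9%, beside 17.5%), which were Cxcl5, Cxcl2, Cxcl12, Cxcr4 and Ccr7.

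**Figure D5:**
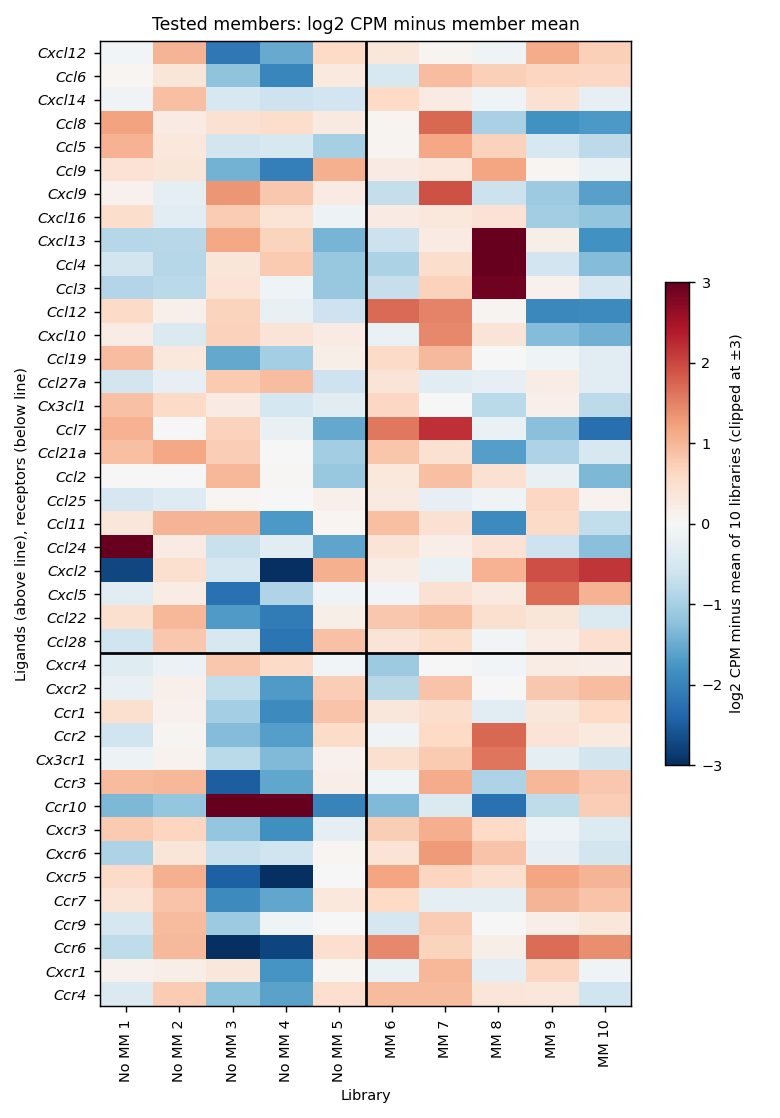
Log2 CPM minus the member's mean over 10 libraries (color, clipped at 3) for tested members, ligands above the horizontal line and receptors below it, with No MM on the left of the vertical line. Blocks follow single libraries: 15 members are lowest in No MM 3 and No MM 4, and Ccl3, Ccl4 and Cxcl13 stand out in MM 8.

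Other genes of the chemokine system, taken from lists chosen with earlier results of these data known, were read at an unadjusted p under 0.05. Of 12 chemokines and receptors outside the naming rule, 1 was higher in MM and 0 lower. That gene was Xcl1, made by T and NK cells, with 1.92 ± 0.94 CPM in No MM and 3.79 ± 2.14 CPM in MM (SD, n = 5 each, log2 fold change 0.98, SE 0.44, edgeR adjusted p = 0.353). The platelet chemokines Pf4 and Ppbp had log2 fold changes of 0.60 and 0.78 (edgeR adjusted p = 0.615 and 0.55), and were lowest in No MM 3.

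Of 27 tested genes of receptor signaling, 5 were higher and 0 lower, with a median log2 fold change of 0.209. They were the receptor kinase Adrbk2 (1.04), the arrestin Arrb2 (0.63), the PI3-kinase subunits Pik3r5 (1.09) and Pik3cd (0.67), and the phospholipase Plcb2 (0.67), with edgeR adjusted p of 0.315 to 0.352. Pik3r5, Adrbk2 and Pik3cd were highest in MM 8, at 138.3, 183.5 and 204.1 CPM. Pik3r5 had 43 to 52.2 CPM in the other MM libraries and 21.6 to 47.7 CPM in No MM. For Adrbk2 these ranges were 53.7 to 107.5 and 26 to 87.9 CPM. Arrb2 peaked in MM 9 and Plcb2 in MM 10. Fits without MM 8 are not given for these genes. The G protein subunits Gnai2 (0.10) and Gnb1 (-0.00) were among those that did not pass. Of 9 tested enzymes that can cleave chemokines, 0 passed in either direction (median -0.143). Of 16 transcription factors tied to chemokine genes, Klf2 was higher (0.66, SE 0.293, edgeR adjusted p = 0.349) and 0 were lower (median 0.292). These shares are to be read beside 3.81% higher and 10.3% lower among all genes.

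Of the cell marker lists, those of osteocytes, osteoblasts, endothelium, early neutrophils, monocytes and macrophages, osteoclasts, eosinophils and basophils, megakaryocytes, red cells and skeletal muscle had 0 members past that threshold. Higher in MM were Angpt1 of 8 marrow stroma markers, Csf3r of 8 mature neutrophil markers and Cd22 of 8 B cell markers. So were Ncr1 of 9 T and NK cell markers, and Clec9a and Zbtb46 of 6 dendritic cell markers. In these lists 0 markers were lower at that threshold, though Cd79b (-0.66) and Gzma (-0.08) were among those below 0. Of the plasma cell markers 7 of 7 were lower. Among all genes 3.81% were higher and 10.3% lower. The log2 fold changes of the named higher markers ran from 0.43 to 1.40, and edgeR adjusted p from 0.315 to 0.346.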

How the data were processed

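RNA was sequenced as stranded total RNA in 76-bp paired-end reads from the osteocyte fraction of 10 mice, 5 per group. The submitters' processing notes name FastQC 0.11.5 and STAR. The counting program, its strand setting and the annotation were not given in the sources used here, so genes that overlap others may share reads. Exons overlap for Cxcl16 with Zmynd15 and for Ccr9 with an antisense gene. Ccr10 overlaps Cntnap1, Cxcl10 overlaps Art3, and Cx3cr1 overlaps several genes, some on its own strand. Cxcr5, Cxcr6, Ccl2, Ccl6, Ccl19, Ccl21a, Ccl25 and Ccl27a also overlap other genes. The boundaries of 28 of 47 members equal those of GENCODE M21 (GRCm38). Ccl19, Ccl21a and Ccl27a have near-identical copies (98% identity or more over 300 bases, blastn 2.17.0) and are uncertain.

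The authors deposited raw read counts per gene, which were used here. They also deposited a signal, in which 1 size factor for each library rescales the counts. The deposited FPKM values served only to check the order of levels. The log2 fold changes and p-values that the authors deposited hold their own comparison and were not used.

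Counts of all genes were filtered with filterByExpr, scaled by TMM and tested with edgeR 4.0.16 in R 4.3.3 (glmQLFit, glmQLFTest), MM against No MM, without covariates, with Benjamini-Hochberg adjustment over 16186 genes and a threshold of 0.05. CPM are TMM-scaled and log2 CPM used a prior count of 2. Differences of mean log2 CPM of single genes were compared by two-sided exact permutation over all assignments of 5 and 5 mice. P-values rest on 1 library per mouse, and floors cover counting error only.

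Named were Cxcl12, Cxcr4, the 8 ligands and 8 receptors of highest level, members at an unadjusted p under 0.05 or without overlap, and their binding partners. The members and lists were chosen with earlier results of these data known. Some gene symbols of the family were not analysed here, and 1 member that enters the counts is not reported here. Of 21 alternatives, 18 were DESeq2 1.42.0, RLE and upper quartile factors, no immunoglobulin genes, 2 other filters, No MM 3 and No MM 4 left out, 1 surrogate variable (sva 3.50.0) and each library left out. The other 3, chosen after seeing the data, left out MM 8 too, added a term for Y-linked reads, or left out those libraries.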

Additional observations from a re-analysis of the deposited data

Results flagged for a closer look

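In each group of 5, the gap between a member's highest or lowest CPM and its nearest neighbour was set against the whole range. Of the 94 sets of the 47 members, 11 stood out at the 95% level. The share over all genes was not computed, and several sets share the same outlying library. The count is therefore not a result about chemokine genes as such. MM 8 was far above the other 4 MM libraries for Ccl3 (29 CPM, others 2.33 to 6.19), Ccl4 (42.9 CPM, others 1.33 to 4.86), Ccl9 (177.7 CPM, others 68.7 to 97.6), Cxcl13 (68.8 CPM, others 1.9 to 8.11) and Ccr2 (440.3 CPM, others 125.3 to 202.4). MM 7 stood above the other MM libraries for Ccl8 (62.8 CPM, others 5.35 to 20) and Cxcl9 (167.2 CPM, others 14.4 to 28.4). Among controls, No MM 1 stood above for Ccl8 (43.7 CPM, others 22.7 to 27.6) and Ccl24 (7.01 CPM, others 0.196 to 0.845), and No MM 2 for Cxcl14 (269 CPM, others 92.5 to 133.4). No MM 4 stood below the other controls for Cxcr1 (0.181 CPM, others 0.784 to 0.969).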

How the results depend on the processing

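No member passed an adjusted p of 0.05 under any of the 21 alternatives, DESeq2 included. At an unadjusted p, 3 members were higher in MM in the fit of all libraries, beside 3.81% of all genes. The count was 5 with DESeq2, without a filter on low counts and without the 3 libraries with Y-linked reads. All genes stood at 4.31%, 3.47% and 4.09% in these settings. The count of members was 1 without No MM 3 and No MM 4, and 1 without these and MM 8. It was 0 to 5 when each library was left out in turn. Beside these stood 2.51% of all genes without No MM 3 and No MM 4, 1.85% without these and MM 8, and 1.78% to 7.8% with 1 library left out. With 1 surrogate variable the count was 2 (Ccl3 and Cxcl13), beside 4.28% of all genes. In the fit of all libraries 1 member was lower in MM, beside 10.3% of all genes. This count became 0 with a surrogate variable, with a term for Y-linked reads and without No MM 3 and No MM 4. The share of all genes fell as well, to 5.29%, 5.2% and 3.37%. With each library left out in turn the count was 0 to 3, beside 5.73% to 14.5% of all genes. The causes were not tested. Across all genes DESeq2 called 31 higher and 176 lower after adjustment, where edgeR called 0, with 617 and 1664 at an unadjusted p. With the deposited FPKM, 15 of the 16 highest ligands and receptors were among those named. DESeq2 gave no value for Ccl4 and Ccl24. The study calls its own differential analysis of these libraries paired. No label says which mice would form pairs, so no paired analysis was run here.

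Log2 fold changes that changed sign without No MM 3 and No MM 4 were those of Cxcl12 (-0.10), Cxcr4 (0.10), Cxcl14 (-0.02), Ccl5 (-0.06), Ccl9 (-0.29), Cxcl9 (0.14), Cxcl10 (0.11), Ccr1 (-0.21), Ccr3 (-0.22), Ccr7 (-0.08), Ccr10 (1.05), Ccl27a (0.43), Ccl28 (-0.22) and Cxcr3 (-0.01). With 1 surrogate variable they were Cxcr4 (0.07), Ccl9 (-0.10), Cxcl9 (0.07), Cxcl10 (0.08), Ccr1 (-0.07), Ccr3 (-0.02), Ccr10 (0.66), Ccl27a (0.36) and Ccl28 (-0.09). Without No MM 3, No MM 4 and MM 8 they were Cxcr4 (0.10), Ccl5 (-0.17), Ccl9 (-0.56), Cxcl9 (0.30), Cxcl10 (0.06), Ccr1 (-0.07), Ccr10 (1.30), Ccl27a (0.48), Ccl28 (-0.11) and Cxcr3 (-0.03), and without the libraries with Y-linked reads Ccl8 (0.04), Cxcl9 (0.12) and Cxcl10 (0.43). With 1 library left out, the value crossed 0 for Ccl2 (-0.18 to 0.41), Ccl4 (-0.30 to 2.11), Ccl5 (-0.07 to 0.66), Ccl7 (-0.06 to 0.95), Ccl12 (-0.04 to 0.72), Ccl24 (-1.67 to 0.46), Ccl27a (-0.40 to 0.01), Cxcl10 (-0.72 to 0.13) and Cxcl13 (-0.39 to 1.79).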
